A study of Mus musculus with 333 samples.

Results

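The 47 genes described here encode the subunits of the receptors through which brain cells sense glutamate and GABA. They were chosen by gene symbol from a table of 22074 genes. The set held 4 AMPA receptor subunits (Gria genes), 5 kainate receptor subunits (Grik), 7 NMDA receptor subunits (Grin), 2 delta receptor subunits (Grid), 8 metabotropic glutamate receptors (Grm), 19 GABA-A receptor subunits (Gabra, Gabrb, Gabrg and the rarer Gabrd, Gabre, Gabrp, Gabrq and Gabrr genes) and 2 GABA-B receptor subunits (Gabbr1 and Gabbr2). Of the 47, 42 had at least 1 read in the data, while Gabrd, Gabre, Gabrp, Gabrr1 and Grm6 had none in any cell.

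The study sequenced 333 single cells from the brains of wildtype mice, sorted by FACS, captured on a Fluidigm C1 chip and amplified from polyA RNA with the SMARTer kit. Sets are named here by age and by the region in the cell's title: 71 cells of E18.5 visual cortex, 51 E18.5 cells titled mThal, 60 cells of P12 visual cortex, 68 of P12 hippocampus, 21 of P12 thalamus and 62 of adult visual cortex. For the 51 titled mThal the labels name visual cortex as the source, so their region is uncertain and they are called by their title throughout. The labels gave 5 mice per stage but tie no cell to a mouse.

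Cell types are the submitters' labels, and 272 cells carried a named type. Neurons numbered 70, all of them at E18.5 (65 from visual cortex and 5 titled mThal), so neuronal type and embryonic age cannot be told apart here. Astrocytes numbered 85 (17 titled mThal and 2 visual cortex at E18.5, 21 visual cortex, 19 hippocampus and 16 thalamus at P12, and 10 adult visual cortex). Oligodendrocyte precursor cells (OPCs) numbered 16, newly formed oligodendrocytes 5, myelinating oligodendrocytes 21, microglia 41 (from 42 libraries, since 2 adult libraries that were near-identical were counted as 1 cell) and endothelial cells 34. A further 53 cells labelled unannotated and 7 labelled purple entered no comparison.

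By median summed level, 6 of the 7 named types had their own marker list highest. In newly formed oligodendrocytes the 12 markers of myelinating oligodendrocytes had a median of 67081 CPM (reads of a gene scaled to a common library total) and their own 12 markers 30464 CPM. The summed level of 12 neuron markers had a median of 6714 CPM in neurons and 166 CPM in astrocytes, and that of 12 astrocyte markers had medians of 40298 and 109 CPM in astrocytes and neurons. The label was less clean in some groups. Of the 16 OPCs, 8 had neuron markers summing to at least 25% of the neurons' median, carried by Map2 (649 CPM), Dcx (385 CPM), Snap25 (277 CPM) and Elavl4 (227 CPM), and the list summed to 350 to 5287 CPM per OPC with a median of 1612 CPM. Of the 12 neuron markers 8 were above 10 CPM in OPCs, while Stmn2, Rbfox3 and Nefl had no read and Syn1 was at 0.487 CPM. The part of this signal in the OPC results was not tested, beyond the comparisons given without the cells that carry it. Of the 21 myelinating oligodendrocytes, 7 passed the same mark through Elavl3 (1498 CPM), while 8 of the 12 neuron markers (Rbfox3, Syt1, Dcx, Nefm, Nefl, Syn1, Elavl4 and Gap43) had no read in these cells. Among astrocytes 6 cells carried neuron markers at that level, and in the endothelial group the lowest cell had only 3.39 CPM of endothelial markers.

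Library depth ran from 374574 to 4849603 reads per cell with a median of 1308901. Median depth was 1432607 reads in neurons, 1111913 in astrocytes, 1278775 in OPCs, 3558657 in myelinating oligodendrocytes, 1398480 in microglia and 1084894 in endothelial cells, while the myelinating cells had the lowest median number of genes with a read (1294, against 3347.5 in neurons). Adult astrocytes were shallow, at a median of 594826 reads and 1666 genes per cell. Shares of cells with a read are therefore given after every cell was thinned to 350000 reads, with exact (Clopper-Pearson) 95% intervals in brackets where given. Because cells cannot be assigned to mice, each type in a set counts as 1 sample: no test between groups was possible, and no p-value is given. Brackets after a pooled level are exact Poisson 95% intervals. The intervals of shares treat cells as independent draws, and the Poisson intervals treat reads as independent. The reads carry no molecular identifiers, so the Poisson intervals can be too narrow. Neither kind covers differences between mice.

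Glutamate and GABA are the main excitatory and inhibitory transmitters of the brain. AMPA, kainate and NMDA receptors are glutamate-gated cation channels built of several subunits, with Gria2 making AMPA receptors impermeable to calcium after RNA editing and Grin1 being the obligatory subunit of NMDA receptors. GABA-A receptors are chloride channels, most commonly built of alpha, beta and gamma subunits, and GABA-B receptors are obligate pairs of Gabbr1 and Gabbr2 that signal through G proteins. Metabotropic glutamate receptors also signal through G proteins, and glia carry several of these receptors, among them Grm3 and Grm5 in astrocytes and AMPA receptors in OPCs.

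Many GABA-A subunit genes lie in clusters. The cluster on mouse chromosome 5 (chr5:70751047-72149037, mm10) holds Gabrg1, Gabra2, Gabra4 and Gabrb1 within 1397991 bases. With all ages pooled, Gabrg1, Gabra4 and Gabrb1 were higher in astrocytes than in the other types and Gabra2 was higher in neurons (values below). Every neuron was embryonic, so type and age cannot be told apart in this contrast. Among embryonic cells alone, Gabrb1 had a negative log2 ratio in astrocytes. Gabra4 was at 0.0737 CPM in the E18.5 astrocytes titled mThal, against 27.5 CPM in neurons. A single E18.5 astrocyte of visual cortex, cell 48, had 1216.5 CPM of Gabra4. The 250 bases before an annotated start of each of the 4 genes are printed because these neighbours carry that contrast of pooled levels. They are RefSeq sequences of GRCm38.p6, the same assembly as mm10, read 5′ to 3′ on the gene's strand, with capitals marking matches on either strand to any of 5 short motifs. These are TATAAA (the TATA box), GGGCGG (the GC box bound by Sp factors), CCAAT (bound by NF-Y), ACAATG (bound by SOX factors) and CAGCTG (an E-box).
Gabrg1, chr5:70842618-70842867, minus strand: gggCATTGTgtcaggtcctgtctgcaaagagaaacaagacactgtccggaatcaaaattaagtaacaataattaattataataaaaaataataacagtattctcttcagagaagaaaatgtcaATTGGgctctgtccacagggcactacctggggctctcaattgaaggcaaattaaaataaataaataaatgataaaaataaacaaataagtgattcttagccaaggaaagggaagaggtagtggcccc
Gabra2, chr5:71095850-71096099, minus strand: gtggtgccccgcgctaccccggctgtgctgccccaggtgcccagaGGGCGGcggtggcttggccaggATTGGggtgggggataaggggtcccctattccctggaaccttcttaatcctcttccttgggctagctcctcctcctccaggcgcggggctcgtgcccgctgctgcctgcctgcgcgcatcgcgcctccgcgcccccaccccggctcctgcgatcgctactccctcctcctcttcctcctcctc
Gabra4, chr5:71658309-71658558, minus strand: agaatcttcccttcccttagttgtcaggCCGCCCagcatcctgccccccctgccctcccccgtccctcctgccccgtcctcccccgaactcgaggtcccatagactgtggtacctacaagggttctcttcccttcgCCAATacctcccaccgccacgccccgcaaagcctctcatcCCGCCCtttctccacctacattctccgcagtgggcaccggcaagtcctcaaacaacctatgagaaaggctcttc
Gabrb1, chr5:71699682-71699931, plus strand: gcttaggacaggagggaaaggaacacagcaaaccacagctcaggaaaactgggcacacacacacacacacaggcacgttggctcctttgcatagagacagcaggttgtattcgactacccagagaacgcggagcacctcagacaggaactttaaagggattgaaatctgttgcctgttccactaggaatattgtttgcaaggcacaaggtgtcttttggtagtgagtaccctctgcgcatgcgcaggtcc

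These windows differed in base composition. The Gabra2 window had 70% G or C and 18 CG dinucleotides and the Gabra4 window 61.2% and 12, against 50.8% and 6 for the Gabrb1 window printed and 35.6% and 1 for Gabrg1. The window of the other Gabrb1 start had 64.4% and 18, close to Gabra2 and Gabra4. The medians over all 32817 RefSeq promoter windows of this length were 52.4% and 6. Gabra2 and Gabra4 held GGGCGG, found in 32.7% of all windows, and CCAAT, found in 33.8%. Gabrg1 held CCAAT and ACAATG (10.7% of all windows), the Gabrb1 window held none of the 5, and none of the 4 held TATAAA (12.4%) or CAGCTG (13%). A match is a description of the letters and not a binding site. Over the 39 windows of the 32 members that have one, GGGCGG occurred in 18, CCAAT in 16, TATAAA in 4, ACAATG in 2 and CAGCTG in 1. Gabrb1 has 2 annotated starts. By RefSeq positions, the gene span from the first overlaps the 5′ end of Gabra4 on the opposite strand by 388 bases. Whether exons lie in the overlap was not examined, and with the GENCODE start of Gabrb1 (71658113) it is shorter. The window printed belongs to the second start, 41624 bases from the start of Gabra4. The strand setting of the counting is not given in the sources used here, so reads of Gabra4 and Gabrb1 cannot be told apart where they overlap.

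Summed over the 47 genes, the pooled level (all reads of the members over all reads of the cells of a type) was 3208 CPM in neurons, 3168 CPM in astrocytes and 3367 CPM in OPCs. It was 1040 CPM in newly formed and 371 CPM in myelinating oligodendrocytes, 128 CPM in microglia and 72.1 CPM in endothelial cells. Neurons, astrocytes and OPCs thus had like sums, built from different members. Per cell, neurons ran from 203 to 10548 CPM with a median of 3205 CPM, astrocytes from 0 to 15954 with a median of 2968, and OPCs from 8.72 to 8490 with a median of 3214, so the ranges of these 3 types overlapped. In a pool of cells, fewer cells with the transcript and less of it per cell cannot be told apart, which is why shares of cells stand beside pooled levels.

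After thinning, a neuron had reads of a median of 8 members (3 to 22), an astrocyte 6 (0 to 13) and an OPC 7.5 (2 to 14). Newly formed oligodendrocytes had 5 (4 to 5) and myelinating ones 1 (0 to 4). Microglia and endothelial cells had a median of 0, although 16 of 41 microglia and 14 of 34 endothelial cells held a read of at least 1 member. Those last shares count a read of any member, so they are no background for a single member. Whether they are stray reads was not tested. By pooled level, 17 members were highest in neurons, 14 in astrocytes, 8 in OPCs and 1 each in newly formed oligodendrocytes, myelinating oligodendrocytes and microglia. These counts take any level above 0, and no like count over all genes is given. The microglial member was at 0.0179 CPM, and the myelinating one was read in 1 cell. Gria2 was counted for neurons at 1346.1 CPM, beside 1345.5 CPM in OPCs.

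**Figure D1:**
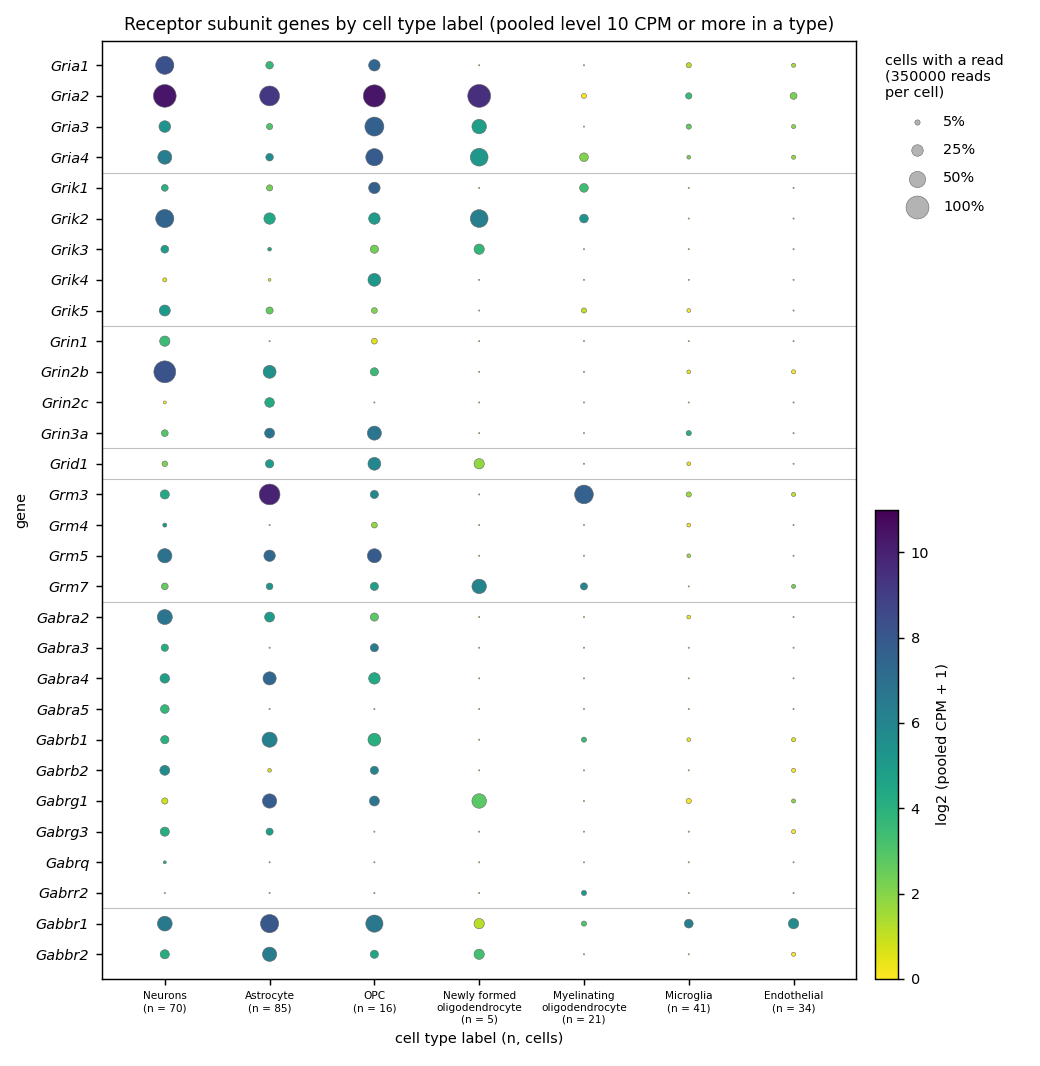
Members given here at 10 CPM or more in at least 1 named type (rows) by cell type label (columns). Dot colour gives log2 of the pooled CPM plus 1 and dot size the share of cells with a read at 350000 reads per cell; Gria2 is dark and large in neurons, OPCs and newly formed oligodendrocytes, and Grm3 in astrocytes.

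AMPA receptor subunits were read most widely. Gria2 (chr3:80681450-80802835, minus strand) had pooled levels of 1346 CPM in neurons [1339, 1354] and 1346 CPM in OPCs [1330, 1361], 742 CPM in newly formed oligodendrocytes and 588 CPM in astrocytes. By cell it ran from 0 to 5803 CPM in neurons (median 1036), from 0 to 3950 in OPCs (median 860), from 0 to 9655 in astrocytes (median 170) and from 70.9 to 2772 in the 5 newly formed oligodendrocytes. A read remained after thinning in 69 of 70 neurons, 15 of 16 OPCs, 5 of 5 newly formed oligodendrocytes and 64 of 85 astrocytes. It was read in few cells elsewhere, with 1 of 21 myelinating oligodendrocytes, 3 of 41 microglia and 3 of 34 endothelial cells. In the myelinating cells its pooled level was 0.0939 CPM against 691 CPM in the other named types.

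The 3 other AMPA subunits differed in pooled level among neurons, OPCs and astrocytes. Gria1, which in the adult forebrain pairs with Gria2, was at 311 CPM in neurons (0 to 2697 by cell, median 36.2; 44 of 70 cells after thinning). In astrocytes it was at 11.4 CPM (9 of 85 cells), and the OPC level of 170 CPM rested mainly on 1 cell, which gave 86.7% of the reads. Gria3 was at 204 CPM in OPCs (0 to 850, median 86.1; 11 of 16 cells), 39.7 CPM in neurons (18 of 70) and 7.26 CPM in astrocytes (6 of 85). Gria4 was at 228 CPM in OPCs (0 to 1199, median 26.5; 9 of 16), 81.4 CPM in neurons (26 of 70) and 47.4 CPM in astrocytes (9 of 85). Reads of 2 or more AMPA subunits in the same cell were found in 57 of 70 neurons (81.4%) [70.3, 89.7] and 13 of 16 OPCs (81.3%) [54.4, 96], against 15 of 85 astrocytes (17.6%) [10.2, 27.4]. An AMPA subunit without a Gria2 read was found in 1 of 70 neurons, 0 of 16 OPCs and 5 of 85 astrocytes (5.88%). The share was no lower in myelinating oligodendrocytes (3 of 21, 14.3%), microglia (3 of 41, 7.32%) and endothelial cells (2 of 34, 5.88%). The astrocyte share thus did not exceed that of these types.

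Kainate receptor subunits differed by type in which gene was read. Grik2 was the kainate subunit with the highest level in neurons, at 173 CPM (0 to 1322, median 24.9; 44 of 70 cells), against 19.9 CPM in astrocytes (21 of 85) and 31.1 CPM in OPCs (4 of 16). Grik5, a subunit that forms channels only with other kainate subunits, was at 32.5 CPM in neurons (16 of 70) and 5.12 CPM in astrocytes (8 of 85), and 63.2% of its neuronal reads came from 1 cell. In OPCs the leading kainate gene was Grik1, at 202 CPM. Its reads came from few cells, with 4 of 16 after thinning and 59.8% of them in 1 cell. Grik4 was read in 5 of 16 OPCs (34.4 CPM) and was at 0.202 CPM in the other named types, with 3 of 256 cells. Grik3 was at 30.4 CPM in neurons (8 of 70 cells) and 21.5 CPM in astrocytes (2 of 85).

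NMDA receptor subunits were led by Grin2b in neurons. Grin2b, the subunit of early development, was at 291 CPM [288, 295] in neurons (0 to 2312 by cell, median 149; 64 of 70 cells), 43.3 CPM in astrocytes (27 of 85) and 10.7 CPM in OPCs (2 of 16). Its share in endothelial cells was 1 of 34 and in microglia 1 of 41. The obligatory subunit Grin1 was far less often read, at 10.4 CPM in 14 of 70 neurons (20%) [11.4, 31.3] and in 0 of 85 astrocytes, an upper limit of 4.25% by the exact interval. A Grin2 or Grin3 read without a Grin1 read was found in 51 of 70 neurons and 49 of 85 astrocytes. Grin2a, which replaces Grin2b at mature synapses, was at 3.7 CPM in the E18.5 neurons (8 of 70).

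Some other NMDA members had higher pooled levels in glial types than in neurons, while Grin2b was also read in astrocytes. Grin3a, whose product lowers calcium entry through NMDA receptors, was at 109 CPM in astrocytes (0 to 1983 by cell; 16 of 85) and 106 CPM in OPCs (0 to 534; 6 of 16), against 6.73 CPM in neurons (6 of 70). Its microglial level of 16.7 CPM came almost wholly from 1 cell (99.9% of reads). Grin2c was at 19.7 CPM in astrocytes (15 of 85) and 0.00712 CPM in the other named types (1 of 187 cells). Adult cells carried most of the Grin2c signal, as described below. Grin2d overlaps Kdelr1 on the opposite strand, so its reads are uncertain for the reason given above. Grin3a overlaps Ppp3r2 on its own strand, and how reads in their overlap were assigned is not recorded.

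Delta receptors, relatives of the AMPA receptors that bind D-serine or glycine and organise synapses, are represented here by Grid1. It was at 59.3 CPM in OPCs (5 of 16), 31.3 CPM in astrocytes (11 of 85) and 3.26 CPM in neurons (4 of 70).

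Metabotropic glutamate receptors showed the clearest astrocyte member. Grm3 (chr5:9485541-9725170, minus strand), a receptor that lowers cyclic AMP, was at 999 CPM [993, 1005] in astrocytes, with cells from 0 to 8085 CPM around a median of 533 CPM and a read in 70 of 85 cells (82.4%) [72.6, 89.8]. It was at 199 CPM in myelinating oligodendrocytes (0 to 857, median 166; 14 of 21 cells), 57.7 CPM in OPCs (2 of 16) and 20.4 CPM in neurons (11 of 70). Microglia and endothelial cells were at 2.16 and 0.766 CPM, with 2 of 41 and 1 of 34 cells. Grm3 was the 1 member read in at least 25% of the thinned myelinating oligodendrocytes.

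Grm5, which couples to calcium release, was shared among 3 types. It was at 226 CPM in OPCs (0 to 1675; 6 of 16), 160 CPM in astrocytes (0 to 3647; 21 of 85) and 116 CPM in neurons (0 to 1767; 27 of 70), and the type ranges overlapped. Grm7, a presynaptic receptor, was at 66.3 CPM in newly formed oligodendrocytes and 64.7 CPM in myelinating oligodendrocytes, each with reads in 2 cells and over 90% of them in 1 (91.6% and 99.3%). Grm4 in neurons (32.8 CPM) was likewise carried by 2 of 70 cells. Grm2 and Grm8 stayed below 10 CPM in every named type.

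With all ages pooled, GABA-A receptor subunits formed 1 set in the embryonic neurons and another in astrocytes. In neurons Gabra2, an alpha subunit typical of immature neurons, was at 105 CPM (0 to 1080; 30 of 70 cells), against 29.8 CPM in astrocytes. Gabrb2, a beta subunit of the commonest adult receptor, was at 50.6 CPM in neurons (13 of 70) and 0.64 CPM in astrocytes. Gabra5 was at 12.5 CPM in neurons (10 of 70) with no read in the 202 cells of other named types, and its reads are uncertain for the same reason as those of Gabra4 and Gabrb1.

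The astrocyte set comprised Gabrg1, Gabra4 and Gabrb1. Gabrg1 (chr5:70751047-70842617, minus strand), an alternative gamma subunit, was at 220 CPM [217, 223] in astrocytes (0 to 2366; 33 of 85 cells) against 0.796 CPM in neurons (5 of 70). Gabra4 (chr5:71569749-71658308, minus strand) was at 166 CPM in astrocytes (0 to 2455; 28 of 85) against 27.5 CPM in neurons (12 of 70), and Gabrb1 (chr5:71658113-72149037, plus strand) at 73.8 CPM (0 to 1544; 37 of 85) against 15.3 CPM (9 of 70). Gabra4 and Gabrb1 were read together in 16 of 85 astrocytes (18.8%) [11.2, 28.8] and in 0 of 70 neurons (at most 5.13% by the exact interval). In OPCs, Gabra3 (85.3 CPM), Gabrg1 (106 CPM) and Gabrb2 (66.4 CPM) had high pooled levels resting on 2 to 4 of 16 cells each. Gabra3 in OPCs came to 51.3% from 1 cell. Gabrr2, at 33.8 CPM in myelinating oligodendrocytes, and Gabrq, at 15.2 CPM in neurons, were read in 1 cell each.

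Reads of an alpha, a beta and a gamma subunit together in 1 cell were found in 16 of 70 neurons (22.9%) [13.7, 34.4], 13 of 85 astrocytes (15.3%) [8.4, 24.7] and 0 of 16 OPCs (at most 20.6%). The neuronal and astrocyte intervals overlapped. Microglia had 0 of 41 such cells and endothelial cells 0 of 34. At least 1 alpha, beta or gamma subunit was read in 59 of 70 neurons, 65 of 85 astrocytes and 14 of 16 OPCs, against 3 of 41 microglia and 5 of 34 endothelial cells. Absence of a partner subunit in a cell is not shown by a missing read at this depth.

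Of the GABA-B receptor subunits, Gabbr1 was read in several types and Gabbr2 mainly in astrocytes. Gabbr1 (chr17:37045966-37075067, plus strand) was at 254 CPM [251, 257] in astrocytes (0 to 5827, median 55.1; 54 of 85 cells), 98.7 CPM in OPCs (9 of 16), 92.8 CPM in neurons (29 of 70) and 78.3 CPM in microglia (6 of 41). In endothelial cells it was at 53.7 CPM in 7 of 34 cells, but 94.5% of those reads came from 1 cell. Gabbr2, the subunit that carries the complex to the surface, was at 86.5 CPM in astrocytes (0 to 977; 33 of 85), 17.1 CPM in neurons (11 of 70) and 21.3 CPM in OPCs (2 of 16). Both subunits of the receptor were read in 29 of 85 astrocytes (34.1%) [24.2, 45.2], 3 of 70 neurons (4.29%) [0.893, 12] and 1 of 16 OPCs. Microglia had no cell with both.

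**Figure D2:**
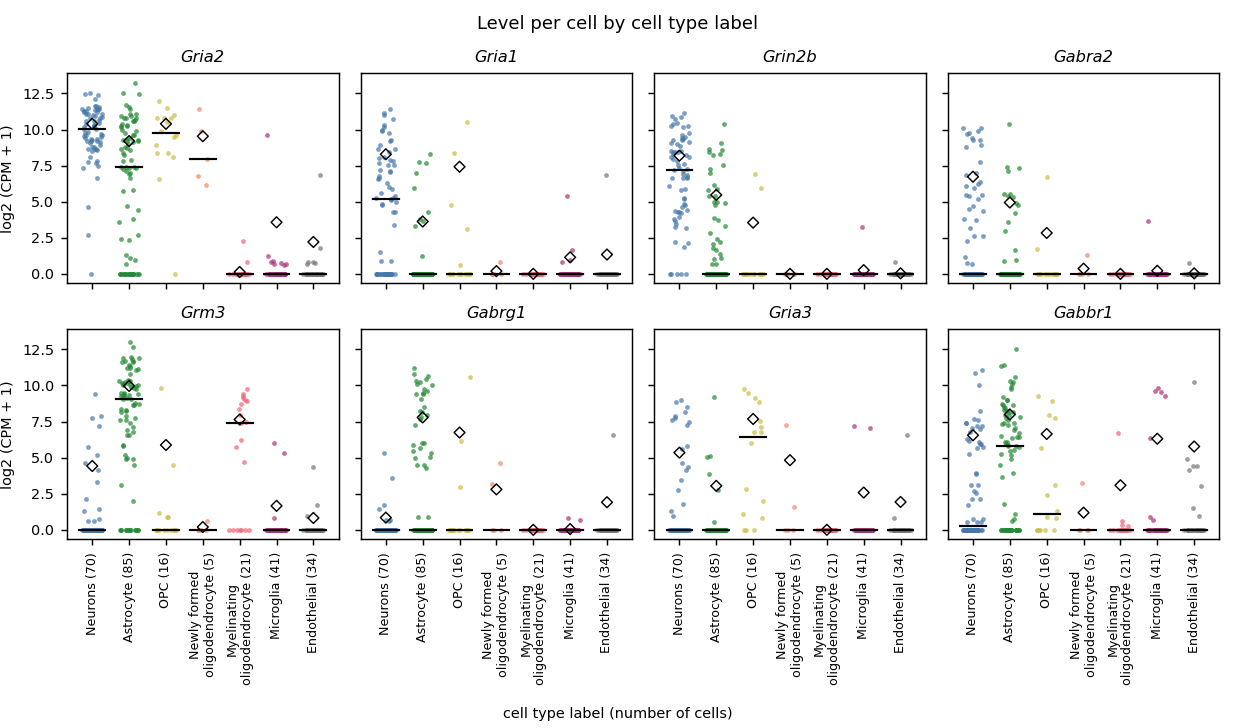
Level of 8 members in single cells, as log2 of CPM plus 1, by cell type label. Points are cells, black bars are medians and diamonds are pooled levels; cells without a read lie at 0 in nearly all groups, so the ranges overlap.

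Genes can be ranked against each other only per kilobase of exon (GENCODE, the same build). On that scale Grm3 led in astrocytes at 328 CPM per kb, followed by Gria2 at 37.8, Gabbr1 at 32.7, Gabrg1 at 27.9 and Gabra4 at 27.3. Neurons were led by Gria2 at 86.6 CPM per kb and Gria1 at 51.5, with Gabra2 at 13.8 and Grik2 at 13.1. OPCs were led by Gria2 at 86.5 CPM per kb, Gria4 at 36.1, Grik1 at 30.1, Gria1 at 28.2 and Grm5 at 22. Grin2b, the third in neurons by reads, was 8th per kilobase, at 11.7, since its annotated exons span 24842 bases. With the coding length of the longest annotated transcript in place of exon length, an alternative added after seeing the data, the leading 2 genes of neurons, astrocytes and OPCs kept their places, but the gap between Grm3 and Gria2 in astrocytes narrowed to 379 against 222 CPM per coding kb. Grik1 in OPCs went from rank 3 to rank 6. How evenly the cDNA covered long transcripts was not tested.

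The next comparisons set each cell type against the other 6 named types pooled, on the log2 scale after adding 1 CPM. Genes reaching 10 CPM in one of the arms are termed measured, and a measured gene is termed called when the arms were at least 4-fold apart and stayed at least 2-fold apart in the same direction whichever single cell was left out. In neurons 31 members were measured. Of these, 13 were called higher, where 10.1% of all 10608 measured genes were, and 4 were called lower, where 20.9% were. The members' median log2 ratio was 1.43, beside 0.01 for all measured genes, with 20 of the 31 above 0. The higher members included Gria1, Gria2, Grik2, Grik5, Grin1, Grin2b, Grm4, Gabra2, Gabra5 and Gabrb2, and the lower ones Grin3a, Grm3, Grm7 and Gabrg1.

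Among the members higher in neurons, Gria1 had a log2 ratio of 4.15 (3.91 to 5.46 when cells were left out 1 at a time), Grin2b 4.10 (4.01 to 4.40) and Gria2 2.05 (1.99 to 2.15). Gria2 lay at the boundary of the 4-fold mark. Grm4, at 4.83, dropped to 1.81 without 1 cell. Gabrg1 was lower at -5.59 and Grm3 at -4.23. Since every neuron is embryonic, the E18.5 cells were also compared alone, an alternative added after seeing the data. Then 15 members were higher and 5 lower, where 19.2% and 12.8% of all genes were. The number of members measured in this comparison is not given here. The other arm held 17 astrocytes, 2 OPCs and 2 microglia titled mThal and 2 astrocytes of visual cortex, so that set and type cannot be told apart there.

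In astrocytes 29 members were measured, and 9 were called higher and 7 lower, where 10% and 14% of all 10681 measured genes were. The higher ones included Grm3 (log2 ratio 4.11, 4.01 to 4.31), Gabrg1 (4.53, 4.39 to 6.70), Grin2c (4.36), Gabra4 (3.84), Gabbr2 (3.36), Grin3a (2.94), Gabrb1 (2.93) and Grid1 (2.30). The lower ones included Gabrb2 (-3.80), Gabra3, Grm4, Gria1 (-3.26) and Grik1 (-2.19). Gabra3 and Grm4 had no read in 85 astrocytes. Gria2 had like levels in astrocytes and in the other types pooled, at 588 and 571 CPM, and so had Gria4, at 47.4 and 46.7 CPM. The members' median log2 ratio was 0.04, beside 0.00 for all genes.

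Some of these calls differed with the ages compared. With P12 cells alone, 12 members were higher in astrocytes and 1 lower, where 19.6% and 13% of all genes were. With E18.5 cells alone 5 were higher and 15 lower, where 10.2% and 22.4% were. Both alternatives were added after seeing the data, and the number of members measured in each is not given here. Against E18.5 cells Gabrb1 turned to a log2 ratio of -1.81 and Grin2c to -0.03. Against P12 cells Gria1 turned to 1.24. The other arm holds the 70 neurons only at E18.5 and no neuron at P12.

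In OPCs 28 members were measured, and 6 were called higher and 6 lower, where 5.65% and 27.2% of all 10434 measured genes were. The higher ones were Grik4 (log2 ratio 4.88, 4.45 to 5.03), Grik1 (4.71, 3.53 to 5.40), Gabra3 (3.92), Gria3 (3.77, 3.37 to 4), Gria4 (2.61, 2.03 to 2.93) and Grid1 (2.49). They comprise 2 AMPA subunits, 2 kainate subunits, 1 delta receptor and 1 GABA-A alpha subunit. The lower ones included Gabra2 (-2.37), Gabrg3, Grin2b (-2.93) and Grm3 (-2.46). Gabrg3 had no read in OPCs. Against P12 cells alone Grin2b turned to 0.53; the other arm then held no neurons.

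In the remaining 4 types no member was called higher. Newly formed oligodendrocytes had 16 of 25 measured members lower and 0 higher, where 43.9% and 3.66% of all genes were. Gria2 (log2 ratio 0.37), Grik2 (0.45) and Grm7 (1.41, -1.74 to 2.22) were among the 9 not called. Myelinating oligodendrocytes had 22 of 28 lower, where 65.1% of all genes were, and 0 higher, where 3.07% were. The members' median log2 ratio of -4.12 stood beside -3.68 for all genes in these cells, in which few genes were read. Grm3 (-0.72) was among the 6 members not called. Microglia had 25 of 27 lower and 0 higher, where 34.7% and 9.24% of all genes were, and endothelial cells 26 of 27 lower and 0 higher, where 34.7% and 7.85% were. Gabbr1 was not called in either (-0.61 and -1.15), and neither was Grin3a in microglia (-1.30), each carried by few cells.

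**Figure D3:**
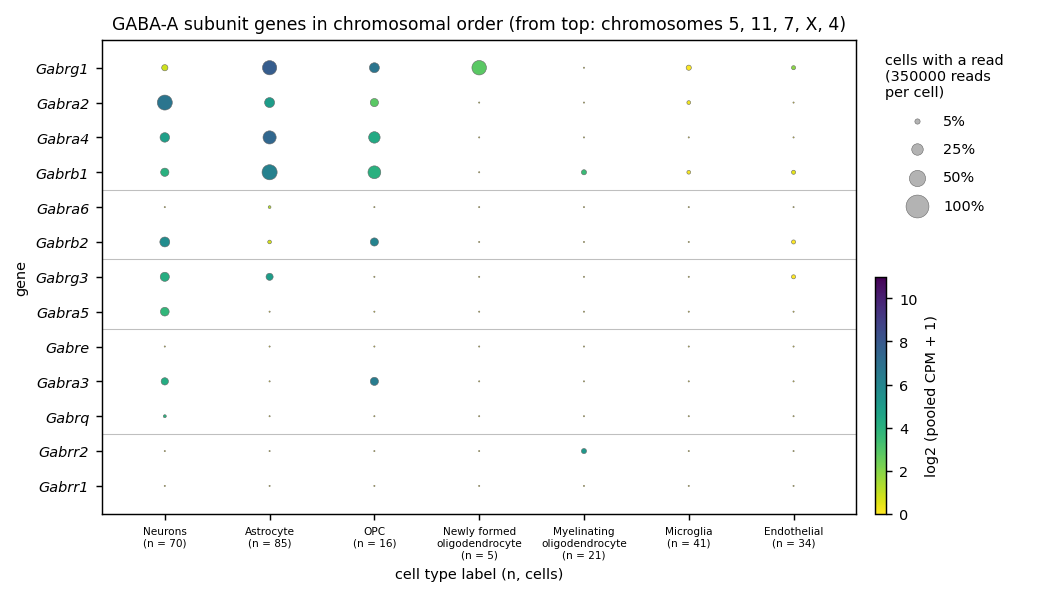
GABA-A subunit genes given here in chromosomal order (rows, from the top chromosomes 5, 11, 7, X and 4) by cell type label (columns). All ages are pooled, and every neuron is embryonic. Dot colour gives log2 of the pooled CPM plus 1 and dot size the share of cells with a read at 350000 reads per cell; Gabrg1, Gabra4 and Gabrb1 are highest in astrocytes, Gabra2 in neurons.

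Neighbouring GABA-A genes could differ across types. On chromosome 5, with all ages pooled, Gabrg1, Gabra4 and Gabrb1 were called higher in astrocytes. Gabra2, between Gabrg1 and Gabra4, was higher in neurons (log2 ratio 3.15, 2.88 to 4.40) and not called in astrocytes (-0.26). Every neuron was embryonic, and among embryonic cells alone Gabrb1 had a negative log2 ratio in astrocytes. Embryonic astrocytes titled mThal had Gabra4 at 0.0737 CPM, against 27.5 CPM in neurons. On chromosome 11, Gabrb2 was higher in neurons (3.11), while Gabra6 stayed below 10 CPM in every named type. On chromosome 7, Gabra5 was higher in neurons (3.76) and Gabrg3 was not called (0.69). On chromosome X, Gabra3 was higher in OPCs, Gabrq was read in 1 neuron and Gabre was not read.

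Within neurons the 5 cells titled mThal were set against the 65 of visual cortex. Of 27 measured members 1 was called higher and 17 lower, where 2.81% and 44% of all 8706 measured genes were. Gria2 was alike in both, at 1132 CPM (596 to 2688 by cell) against 1368 CPM, and so was Grin2b, at 257 against 295 CPM. Gria1 had no read in the 5 cells, against 343 CPM in the cortical neurons, where 44 of 65 cells had a read. Grik2 was at 17.6 against 189 CPM, Grm5 at 1.25 against 128 CPM and Gabra2 at 3.86 against 116 CPM.

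The 5 cells had neuron markers at a median of 9018 CPM against 6585 CPM, cortical excitatory markers at 403 against 1595 CPM and markers of newly formed oligodendrocytes at 763 against 408 CPM. The part of these in the differences was not tested. Within the set titled mThal, the 5 neurons against 17 astrocytes had 3 of 20 measured members higher, Gria2 among them, and 7 lower, where 7.04% and 33.4% of all genes were. Gria2 was at 1132 against 142 CPM and Grm3 at 1.93 against 1524 CPM. With both E18.5 sets pooled, 16 of 31 measured members were higher and 5 lower, where 22% and 11.3% of all genes were, and Gria1 turned from lower to a log2 ratio of 4.10.

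OPCs and astrocytes of the same P12 sets (10 and 40 cells of visual cortex and hippocampus) had 8 of 23 measured members called higher in OPCs and 5 lower, where 8.91% and 26.2% of all 9517 measured genes were. Higher in OPCs were, among others, Gria3 at 206 against 0.212 CPM (7 of 10 against 2 of 40 cells), Gria4 at 45.1 against 0.233 CPM (5 of 10 against 2 of 40), Grik1 at 320 against 0.849 CPM, Grik4 at 47.8 CPM against no read, Grm5 at 359 against 41.1 CPM, Grid1 and Gabrb2. Lower in OPCs were Grm3 at 97.6 against 900 CPM (2 of 10 against 34 of 40), Gabra4 at 33.3 against 299 CPM, Gabrb1 at 15.3 against 122 CPM, Gabrg1 at 7.25 against 150 CPM and Gabrg3. Gria3 was read in most of these OPCs and Gria4 in 5 of 10, whereas Gabrb2 and Grik1 were each read in 2 of 10 OPCs. Gria2 was at 1374 against 751 CPM and not called (log2 ratio 0.87).

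Neuron markers summed to a median of 922 CPM in these OPCs against 170 CPM in the astrocytes, and astrocyte markers to 770 against 49579 CPM. Without the cells carrying markers of another class, Grik1 turned to a log2 ratio of -0.97. In the P12 hippocampus, the 15 myelinating oligodendrocytes set against 6 OPCs had 1 of 18 measured members higher (Grm3, at 142 against 0.557 CPM, 8 of 15 against 0 of 6 cells) and 10 lower, where 7.98% and 36.8% of all genes were. Gria2 had no read in the 15 cells against 1506 CPM in the 6 OPCs, and Gria3 none against 181 CPM. All 15 myelinating cells carry cell identifiers of a lower number block, which holds 1 other cell, and the 6 OPCs carry those of the upper block, so cell type and block cannot be told apart. Leaving out the cells with markers of another class cut the calls from 11 to 2. That took away 8 of the 15 myelinating cells and 3 of the 6 OPCs. The parts of the markers and of the smaller groups in this drop were not tested.

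Grm3 was also read in the adult myelinating oligodendrocytes of visual cortex, at 539 CPM, with all 6 cells between 166 and 857 CPM. In the 15 P12 hippocampal cells it was at 142 CPM (0 to 504, median 24.8; 8 of 15 cells). The 2 groups' ranges overlapped, and the adult cells had fewer reads and more genes (medians of 1335832 reads and 2287.5 genes against 4120108 and 1182).

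**Figure D4:**
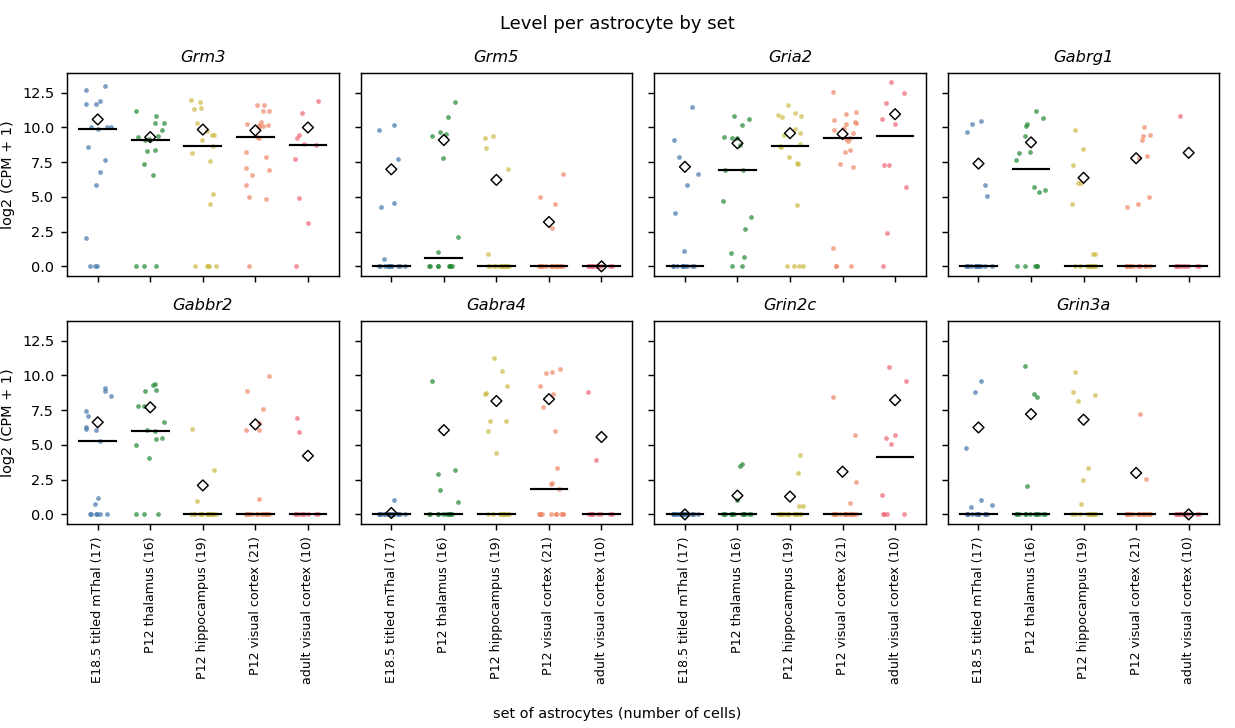
Level of members in single astrocytes, as log2 of CPM plus 1, by set. Points are cells, black bars are medians and diamonds are pooled levels; Grm3 is high in the 5 sets of 10 or more cells, and Gabbr2 is lowest in P12 hippocampus.

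Astrocytes were present in all 6 sets, which allows the members to be followed across ages and regions. Grm3 was high in each set of 10 or more cells: 1524 CPM at E18.5 titled mThal (0 to 8085, median 938), 880 CPM in P12 visual cortex (0 to 3161, median 632), 920 CPM in P12 hippocampus (0 to 4072, median 401), 629 CPM in P12 thalamus (0 to 2350, median 548) and 1019 CPM in adult visual cortex (0 to 3884, median 433). Shares after thinning were 14 of 17, 20 of 21, 14 of 19, 13 of 16 and 9 of 10 cells. The per-cell ranges overlapped, and Grm3 was not called in any of the 5 comparisons between astrocyte sets. The 2 E18.5 astrocytes of visual cortex had no Grm3 read.

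Gria2 in astrocytes was lowest at E18.5, at 142 CPM titled mThal (0 to 2800, median 0; 7 of 17 cells). It was at 734 CPM in P12 visual cortex (0 to 5968, median 613; 18 of 21), 767 CPM in P12 hippocampus (0 to 3085, median 401; 15 of 19), 462 CPM in P12 thalamus (0 to 1787, median 123; 13 of 16) and 1977 CPM in adult visual cortex (0 to 9655, median 677; 9 of 10). Among these sets the pooled level was lowest at E18.5 and highest in the adult, but the ranges overlapped. P12 thalamus against E18.5 titled mThal (log2 ratio 1.69) was not called, and neither was adult against P12 visual cortex (1.43). Gabbr1 ran from 144 CPM in P12 hippocampus to 485 CPM in adult cortex, where 88.3% of reads came from 1 cell.

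At P12, the hippocampus differed from visual cortex in 7 of 16 measured members, 4 higher and 3 lower, where 8.56% and 11.9% of all 9069 measured genes were. Higher in hippocampus were Grin3a (112 against 6.91 CPM; 6 of 19 against 2 of 21 cells), Grm5 (73.7 against 8.15 CPM; 4 of each), Grik2 (51.4 against 7.55 CPM, but 3 of 19 against 6 of 21 cells) and Gria1 (23.7 CPM against no read). Lower were Gabbr2 (3.25 against 88.3 CPM; 2 of 19 against 7 of 21), Gabrg3 and Grid1. Gabra4, Gabrb1, Gabrg1, Gabbr1, Gria2 and Grm3 were not called. Astrocyte markers were alike, with medians of 49848 and 49310 CPM.

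The thalamus differed from visual cortex in 8 of 21 measured members, 6 higher and 2 lower, where 8.39% and 15.8% of all 8995 measured genes were, and from hippocampus in 10 of 20, 7 higher and 3 lower, where 11% and 14.4% of 8946 were. These comparisons share the thalamic cells and so are not independent. Grm5 was at 544 CPM in thalamus (0 to 3647; 7 of 16 cells), against 8.15 CPM in cortex (4 of 21) and 73.7 CPM in hippocampus (4 of 19). It was called higher in both comparisons, with log2 ratios of 5.90 (4.97 to 7.10) and 2.87 (1.94 to 3.50), and since each set held cells without a read, the ranges overlapped. Grin3a was higher than in cortex (148 against 6.91 CPM; 3 of 16 against 2 of 21 cells) and not called against hippocampus.

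Gabbr2 in thalamus was read in most cells, at 208 CPM (0 to 658, median 64.6; 13 of 16), against 88.3 CPM in cortex (7 of 21) and 3.25 CPM in hippocampus (2 of 19). It was called against hippocampus (log2 ratio 5.62, 5.27 to 7.14) and not against cortex (1.23). Gabrg1 followed the same order, at 484 CPM (0 to 2366, median 126; 11 of 16), 219 CPM (9 of 21) and 81.9 CPM (7 of 19), called against hippocampus (2.55) and not against cortex (1.14). Gabra4 ran the other way, at 65.9 CPM in thalamus (4 of 16 cells, 98.2% of reads from 1), against 313 CPM (10 of 21) and 286 CPM (9 of 19). Gabrb1, its neighbour, was at 46.1, 140 and 103 CPM (4 of 16, 14 of 21 and 12 of 19 cells) and was not called in either comparison (-1.59 and -1.15). Gria4, Grik3 and Grm7 were called higher in thalamus from reads in 2 or 3 of 16 cells each, and 98.1% of the thalamic Gria4 reads came from 1 cell.

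**Figure D5:**
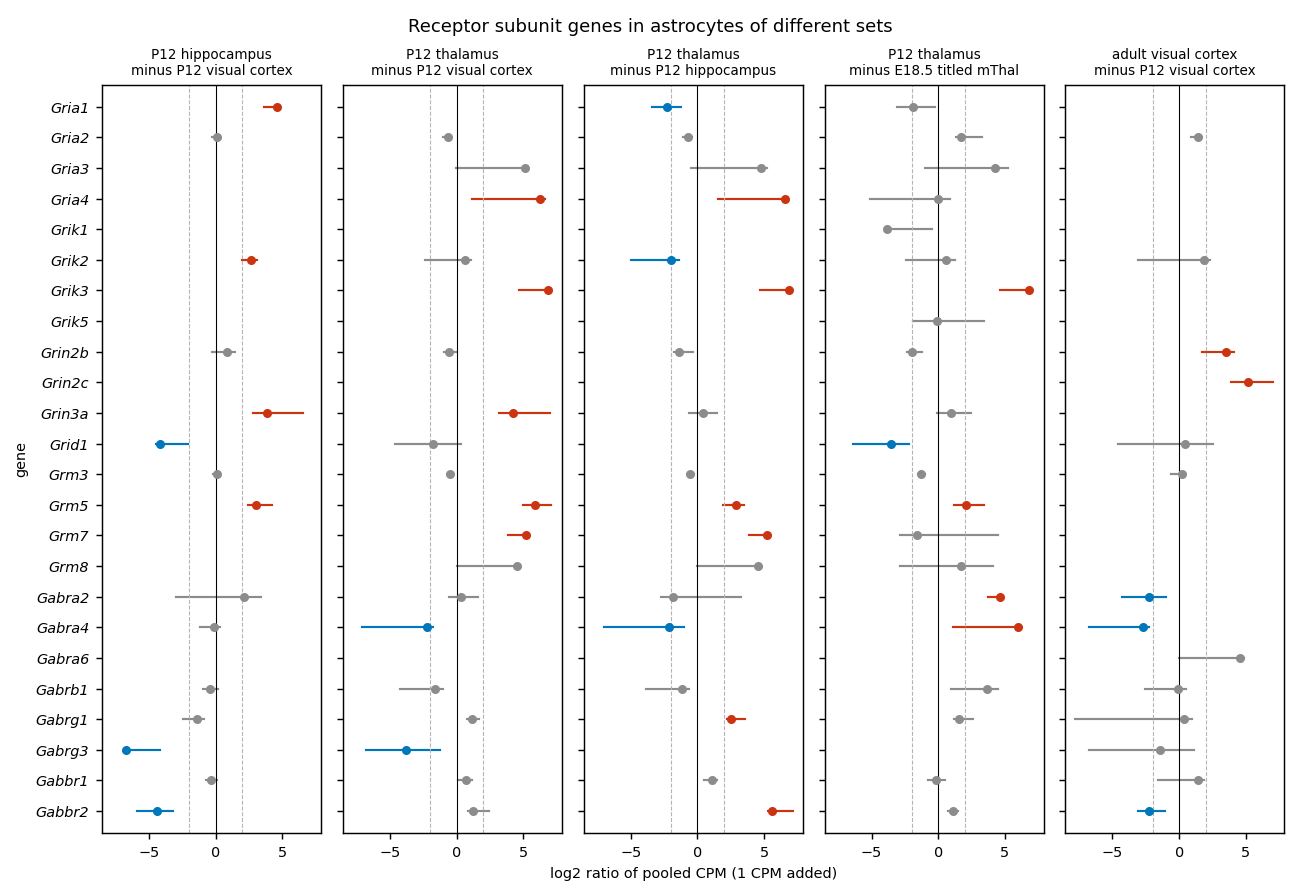
Log2 ratios of the members given here between astrocyte sets. Points are ratios of pooled levels after adding 1 CPM, bars give the range when each cell is left out in turn, dashed lines mark 4-fold, and red, blue and grey stand for called higher, called lower and not called.

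From E18.5 titled mThal to P12 thalamus, 4 of 23 measured members were called higher and 1 lower, where 11.9% and 15.2% of all 9003 measured genes were. The members' shares were 17.4% and 4.35%. Higher were Gabra2 (23.6 CPM against no read; 7 of 16 against 0 of 17 cells), Grm5 (544 against 126 CPM), Gabra4 (65.9 against 0.0737 CPM; 4 of 16 against 1 of 17) and Grik3. Of the thalamic Gabra4 reads, 98.2% came from 1 cell, and Grik3 rested on few thalamic cells, as given above. Grid1 was lower, at 6.18 against 85 CPM. Grm3 was at 629 against 1524 CPM and not called (-1.27). Astrocyte markers had medians of 40578 CPM at P12 and 16231 CPM at E18.5, 5 of the 17 E18.5 cells carried markers of another class, and the region of those cells is uncertain; the part of these in the differences was not tested.

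From P12 to adult visual cortex, 15 members were measured in astrocytes, and 2 were called higher and 3 lower, where 4.73% and 42.5% of all 8379 measured genes were. Grin2c was at 298 CPM in the adult (0 to 1581, median 16.9; 5 of 10 cells) against 7.42 CPM at P12 (0 to 351; 3 of 21), a log2 ratio of 5.15 (3.90 to 7.02). It had no read in the 17 E18.5 cells titled mThal and was at 1.44 and 1.56 CPM in P12 hippocampus and thalamus. Grin2b was at 212 CPM (4 of 10 cells) against 18 CPM (7 of 21), with 75.1% of the adult reads from 1 cell. Lower in the adult were Gabra4 (46.6 against 313 CPM; 2 of 10 against 10 of 21 cells), Gabbr2 (17.6 against 88.3 CPM) and Gabra2 (3.05 against 18.9 CPM). The median over all genes was -2.36 in these shallower adult cells, beside 0.45 for the 15 members. Of the adult Gabra4 reads, 96.4% came from 1 cell. Grm5 and Grin3a had no read in the 10 adult astrocytes.

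In microglia, 3 members were measured between adult and P12 visual cortex. Gabbr1 was called lower in the adult (0 higher and 1 lower, where 6.57% and 25.4% of all genes were), with no read in 10 adult cells against 131 CPM at P12 (3 of 18 cells). Macrophage markers reached 30942 CPM in single P12 cells and at most 3.07 CPM in adult ones, and their part in the Gabbr1 difference was not tested. In endothelial cells, none of 4 measured members was called between adult and P12, where 19% and 10.5% of all genes were higher and lower. Gabbr1 there was at 2.23 CPM in 23 adult cells and 222 CPM in 7 P12 cells, 98.3% of the latter from 1 cell.

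Genes that act with the receptors were followed from 8 lists. Their counts stand beside the shares over all genes given above, 10.1% higher and 20.9% lower in neurons, 10% and 14% in astrocytes and 5.65% and 27.2% in OPCs, and with 1 to 9 measured genes a list, a count of 1 or 2 is no result about a list. Of 15 AMPA receptor partners, 9 were measured in neurons, with Cacng2, Cnih3 and Grip1 called higher and Shisa9 lower. Cacng2, or stargazin, carries AMPA receptors to the synapse and was at 38.9 against 0.316 CPM. In astrocytes Cacng5 (84.4 against 3.5 CPM) and Shisa9 (127 against 16.8 CPM) were higher and Cacng2 and Cnih3 lower. In OPCs Cacng4 (403 against 45.3 CPM) and Shisa7 (110 against 9.97 CPM) were higher and Cacng2, Cacng5 and Cnih3 lower. In newly formed oligodendrocytes, which also had Gria2, none of 8 measured partners was called higher and 6 were lower, where 3.66% and 43.9% of all genes were.

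Of the 2 kainate receptor partners, Neto2 was higher in neurons (171 against 11 CPM) and Neto1 in OPCs (93.4 against 0.412 CPM). Of 12 glutamate synapse scaffolds, 3 of 8 measured were higher in neurons (Dlg2, Dlg3 and Homer2) and 0 lower; in astrocytes 1 of 8 was higher (Dlgap1) and 2 lower (Dlg2 and Shank1). Of 10 GABA receptor partners, 0 of 9 measured were higher in neurons and 2 lower (Kctd12 and Kctd12b), and in astrocytes 1 of 8 was lower (Kctd12). Kctd12 is an auxiliary subunit of GABA-B receptors. It was called higher in microglia together with Kctd12b.

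Slc1a2, Slc1a3 and Slc6a11, transporters that clear glutamate or GABA, were higher in astrocytes, while Slc1a1 was lower. Of 9 genes of glutamate transport and metabolism, 3 of 7 measured were higher (Slc1a2 at 9013 against 92.2 CPM, Slc1a3 at 10713 against 214 CPM, and Glud1) and 2 lower (Slc17a6 and Slc1a1). Slc1a2 and Slc1a3 are also in the list of astrocyte markers. Of 9 genes of GABA synthesis, transport and breakdown, 4 of 7 were higher (among them Slc6a11 at 713 against 4.16 CPM, Abat and Aldh5a1) and 0 lower. Neurons had Gad1, Gad2 and Slc17a6 higher and Slc1a2, Slc1a3 and Slc6a11 lower, and of the 2 chloride transporters Slc12a5 was higher (13.4 against 0.219 CPM). Of 5 glycine receptor subunits, Glra2 was higher in neurons (29 against 0.0208 CPM) and no other was called in neurons, astrocytes or OPCs.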

How the data were processed

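Single-cell RNA-seq counts of 333 libraries were used. The authors deposited whole-number read counts per gene, made with STAR, HTSeq 0.6.0 and mm10 per the submitters' processing notes; its strand and multi-mapping settings are not recorded there. Of 22074 gene symbols, 21250 matched GENCODE mouse symbols. Groups came from the labelled cell type and the set in the title. Near-identical libraries (correlation 0.994, next pair 0.638; merged above 0.95) were counted as 1 cell, leaving 332. Reads were summed over the cells of a group and divided by their total (CPM). A gene was measured at 10 CPM in either arm, and called at 4-fold (1 CPM added) if still 2-fold apart without any single cell. Because no label ties cells to mice, each group is 1 sample and no test was made. Cells were thinned to 350000 reads (seed 11). Total reads per cell ran from 374574 to 4849603, which sets the counting precision (95% intervals).

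Any member could be named; values were given in full for the 21 members reaching 20 CPM and a read in 25% of thinned cells in a group of 5 or more cells, and for called members. Non-members came from 8 pathway and 11 marker lists. The members and lists were chosen with earlier results of these data known. Alternatives covered scaling (edgeR 4.0.16 TMM, median of ratios), the added CPM, the minimum, cell weights, marker-carrying cells, fold and single cells. Python 3.11.15, numpy 2.4.6, pandas 2.3.3, scipy 1.17.1, matplotlib 3.10.9 and R 4.3.3 were used, and the procedure was tested on simulated data. Unannotated and purple cells were left out of comparisons. Some members and list genes are counted in the totals but not reported here singly.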

Additional observations from a re-analysis of the deposited data

Results flagged for a closer look

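Of 22 groups and measures of single cells examined for an extreme cell, 6 had one. The mark used gives about 1 in 20 by chance for normally distributed values; levels per cell were skewed, with several medians near 0, so that rate does not hold here. In adult astrocytes, cell 29 had a summed level of the 47 members of 15954 CPM, where the next cell had 6453 CPM and the median was 3737 CPM. The same cell had a Gabbr1 level of 5827 CPM, against 371 CPM in the next. In P12 visual cortex endothelial cells, cell 8 had a summed level of 1224 CPM (next 301 CPM), and cell 60 had a Gria2 level of 115 CPM (next 2.44 CPM). Among microglia, P12 hippocampus cell 35 had a summed level of 783 CPM (next 83 CPM), and adult visual cortex cell 35 had 1233 CPM (next 39.1 CPM).

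Cells without a named type entered no comparison but held reads of the members. The median summed level of unannotated cells was 658 CPM in the 25 titled mThal, 2516 CPM in 4 of E18.5 visual cortex, 2567 CPM in 16 of P12 hippocampus, 1726 CPM in 5 of P12 visual cortex and 1093 CPM in 2 of adult visual cortex. The 1 unannotated cell of P12 thalamus had 10.2 CPM. The 6 purple cells of adult visual cortex had a median of 0.462 CPM, and their highest had 431 CPM.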

How the results depend on the processing

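Of 218 recomputed counts and shares, 189 stayed within their limits and 29 moved. With a minimum of 50 CPM fewer genes were tested, and called members went from 17 to 11 in neurons, 16 to 8 in astrocytes, 12 to 7 in OPCs, 16 to 7 in newly formed and 22 to 10 in myelinating oligodendrocytes, 25 to 11 in microglia, 26 to 11 in endothelial cells and 18 to 8 between the sets of neurons. Median-of-ratios scaling left 11 of 22 in myelinating oligodendrocytes; there the scalings moved all genes by 1.68 and 2.31 on the log2 scale (TMM and median of ratios), and against OPCs by 1.74 and 2.07. With 5 CPM added, thalamic astrocytes had 5 calls against cortex (from 8) and 6 against hippocampus (from 10), and adult astrocytes 3 (from 5); equal cell weights gave 5 against cortex and TMM 3 in the adult. Without the condition on single cells, calls went from 10 to 16 (neurons against astrocytes titled mThal), 1 to 3 (microglia) and 0 to 4 (endothelial cells). For astrocytes of P12 thalamus against E18.5 titled mThal they went from 5 to 9, and also to 9 at 2-fold. Pooling both E18.5 sets gave 21 in place of 10 and could not be applied between the sets. Without cells carrying markers of another class, myelinating oligodendrocytes against OPCs had 2 calls in place of 11, with 8 myelinating cells and 3 OPCs left out. The cause of these changes was not tested. Of the 222 calls of members over the 18 comparisons, 205 held with TMM, 200 with median of ratios, 177 with 5 CPM added, 132 with the minimum of 50 CPM, 207 with equal cell weights and 195 without the 28 marker-carrying cells. In the comparisons not named here the scalings moved all genes by at most 0.675. Depth limits what a missing read shows, above all in the adult astrocytes.

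Leaving out each cell in turn, the members 4-fold apart numbered 16 to 19 in neurons, 15 to 19 in astrocytes, 11 to 14 in OPCs, 15 to 17 in newly formed and 22 to 24 in myelinating oligodendrocytes, 24 to 26 in microglia and 25 to 27 in endothelial cells. They numbered 14 to 17 for neurons against astrocytes titled mThal, 19 to 22 between the sets of neurons, 13 to 17 for OPCs against astrocytes and 14 to 17 for myelinating oligodendrocytes against OPCs. Between P12 astrocyte sets they numbered 7 to 9 (hippocampus and cortex), 9 to 13 (thalamus and cortex) and 11 to 14 (thalamus and hippocampus). They numbered 7 to 13 for astrocytes of P12 thalamus against E18.5 titled mThal and 5 to 9 for those of cortex over age. In microglia and endothelial cells over age they numbered 1 to 3 and 1 to 4.

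Directions reversed in 7 of the results given for single members, on the log2 scale. With E18.5 cells alone, Gabrb1 (-1.81) and Grin2c (-0.0286) reversed in astrocytes; with P12 cells alone, Gria1 (1.24) did in astrocytes and Grin2b (0.53) in OPCs. Pooling the E18.5 sets reversed Gria1 in neurons against astrocytes titled mThal (4.10), and leaving out marker-carrying cells reversed Grik1 against astrocytes (-0.97) and against OPCs (1.57). The alternatives restricted to 1 age, and that without the P12 hippocampus myelinating oligodendrocytes (24 calls, all lower), were chosen after seeing the data. With those myelinating cells kept, 65.1% of all genes were lower. The share over all genes without them is not given here, so the 24 calls are no result about the members. No paired analysis was possible because the labels assign cells to no mouse, the cell numbers pair no groups and no test was made.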
